A study of Mus musculus with 16 samples.

Results

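Transcripts of 7 mouse pseudogenes were described in CD45-positive bone marrow cells enriched for lineage-negative, Kit-positive, Sca1-positive (LSK) progenitors, where each stood at least 8-fold higher in Tet2-deficient than in WT cells at both oxygen levels. The 7 are Rps2-ps10, Rps13-ps1, Eif3s6-ps2, Pcna-ps2, Atp6v0c-ps2, Tdpx-ps1 and Ear-ps2, of 6288 genes in the deposited table. They were chosen by their normalized counts, for that gap between the genotypes, so their genotype values below are a description and carry no test. Bulk RNA sequencing was done on 4 groups of 4 libraries: Tet2-deficient physioxia, WT physioxia, Tet2-deficient air and WT air. The Tet2-deficient mice carried Tet2-/- and the WT mice were C57Bl/6J, the strain given for all samples. Mice were 3 to 4 months old and of both sexes, and labels describe the 4 replicates of a group as matched biological replicates. Marrow of every group was collected at 3% oxygen, and the enriched cells then stayed there (physioxia) or stood for 6 hours in room air of about 21% oxygen (air) until RNA was taken. The labels name neither the cell type in which Tet2 was deleted nor the sex of a library.

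A pseudogene is a copy of a gene that is annotated as no longer encoding its protein. A processed pseudogene arose when a spliced messenger RNA was copied back into DNA, so it lacks introns and often its parent's promoter, while an unprocessed one arose by duplication of genomic DNA. Such copies are numerous for ribosomal protein genes, and where a copy has kept most of its parent's letters a short sequencing read can fit both places. Of the 7, Ear-ps2 is annotated as unprocessed, Rps2-ps10 as transcribed processed and the other 5 as processed.

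The letters of the copies and of the coding genes they match best set how far reads can be told apart. The sequences below are from the GENCODE release M21 transcripts (GRCm38). They are shown because they include the closest of the 7 copies, Atp6v0c-ps2. They also include Tdpx-ps1, the copy with the lowest identity over aligned bases when gaps are left out. Each is a stretch of 120 bases, 5′ to 3′ on the strand of the gene, and capitals mark bases that differ between a copy and its coding gene. Atp6v0c-ps2 (chr6:37806086-37806205, plus strand) is set beside bases 1 to 120 of the coding sequence of Atp6v0c:
Atp6v0c-ps2: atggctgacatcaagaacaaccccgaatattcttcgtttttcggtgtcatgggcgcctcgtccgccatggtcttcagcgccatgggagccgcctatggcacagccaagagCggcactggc
Atp6v0c: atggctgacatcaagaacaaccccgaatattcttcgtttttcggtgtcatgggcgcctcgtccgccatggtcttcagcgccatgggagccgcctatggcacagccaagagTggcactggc
Rps13-ps1 (chr8:87048029-87048148, plus strand) is set beside bases 310 to 429 of the coding sequence of Rps13:
Rps13-ps1: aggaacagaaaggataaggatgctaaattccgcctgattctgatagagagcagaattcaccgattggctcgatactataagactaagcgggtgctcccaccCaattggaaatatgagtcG
Rps13: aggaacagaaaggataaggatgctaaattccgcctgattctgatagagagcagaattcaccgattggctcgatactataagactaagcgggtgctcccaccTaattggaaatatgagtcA
Ear-ps2 (chr14:44047037-44047156, plus strand) is set beside bases 51 to 170 of the coding sequence of Ear10:
Ear-ps2: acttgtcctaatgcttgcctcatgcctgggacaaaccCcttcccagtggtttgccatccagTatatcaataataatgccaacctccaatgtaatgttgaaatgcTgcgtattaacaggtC
Ear10: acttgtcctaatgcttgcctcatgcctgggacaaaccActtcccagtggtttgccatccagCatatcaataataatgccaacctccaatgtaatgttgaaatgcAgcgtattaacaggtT
Tdpx-ps1 (chr1:99790906-99791025, minus strand) is set beside bases 1 to 120 of the coding sequence of Prdx2:
Tdpx-ps1: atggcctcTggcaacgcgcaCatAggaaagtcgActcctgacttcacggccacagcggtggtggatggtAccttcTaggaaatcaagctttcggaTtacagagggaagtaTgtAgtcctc
Prdx2: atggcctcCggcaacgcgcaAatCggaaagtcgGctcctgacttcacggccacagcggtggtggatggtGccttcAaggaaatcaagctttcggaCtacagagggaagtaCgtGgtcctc
Counted from the left end of each stretch, and with the coding gene's base first, the only substitution in the Atp6v0c-ps2 stretch was T111C and those in the Rps13-ps1 stretch were T102C and A120G. The stretches of Ear-ps2 and Tdpx-ps1 held 4 and 9 substitutions.

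Over the whole aligned coding sequence, 4 of the copies differed from their coding gene at under 1% of bases. Atp6v0c-ps2 was 99.8% identical to Atp6v0c (1 substitution in 465 bases), Rps13-ps1 99.6% to Rps13 (2 in 456), Rps2-ps10 99.4% to Rps2 (5 in 879) and Pcna-ps2 99.2% to Pcna (6 in 781). None of these 4 had a gap or an in-frame stop codon in the aligned part. Pcna-ps2 as annotated starts inside the start codon. Ear-ps2 was 98.3% identical to Ear10 and had 1 in-frame stop codon. Eif3s6-ps2 was 97.3% identical to Eif3e, with 35 substitutions, 3 frame-shifting gaps and 2 in-frame stop codons. Tdpx-ps1 was closest to Prdx2 among coding genes (96.3%, 22 substitutions) and had 3 in-frame stop codons.

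The share of each copy found letter for letter in other annotated genes varied widely. Windows of 100 bases were looked up in the annotated transcripts of every other gene, on both strands, since the read length is not given in the sources used here. Of such windows, 96.9% of Rps2-ps10, 80.9% of Rps13-ps1 and 72.7% of Atp6v0c-ps2 were found letter for letter in another gene. The share was 37.0% for Pcna-ps2, 12.2% for Tdpx-ps1, 11.7% for Ear-ps2 and 5.64% for Eif3s6-ps2. With windows of 50 bases it ran from 21.6% for Eif3s6-ps2 to 100% for Rps2-ps10. The genes that shared windows of 100 bases with Rps2-ps10 numbered 37, against 1 each for Pcna-ps2, Atp6v0c-ps2 and Tdpx-ps1. How reads that fit several places were counted, and whether counting used the strand, are not given in the sources used here. The levels of a copy and of its closest relatives are therefore uncertain. These shares change with the window length and do not measure the size of that uncertainty. Unannotated copies were not searched.

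The libraries held 7.77 to 15.7 M reads in the table, whose values are read counts per gene divided by a size factor of the library. By DESeq2, 97.9% of the genes tested reached an unadjusted p under 0.05 between some pair of groups, and the shares of called genes given below are those of a table made up mostly of differing genes. Tet2, the targeted gene, stood at 489, 447, 463 and 530 normalized counts in Tet2-deficient physioxia against 782, 592, 812 and 739 in WT physioxia. The air values of Tet2 were 626, 564, 519 and 506 in Tet2-deficient libraries against 993, 650, 962 and 813 in WT libraries. The genotypes did not overlap within an oxygen level, and reads over Tet2 remained in every Tet2-deficient library. Since the counts cover all exons of Tet2, deleted or not, they are a partial check of the labels. Of the genes of the table, 118 (1.88%) stood at least 8-fold higher in Tet2-deficient cells at both oxygen levels, and 101 (1.61%) at least 8-fold lower.

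**Figure D1:**
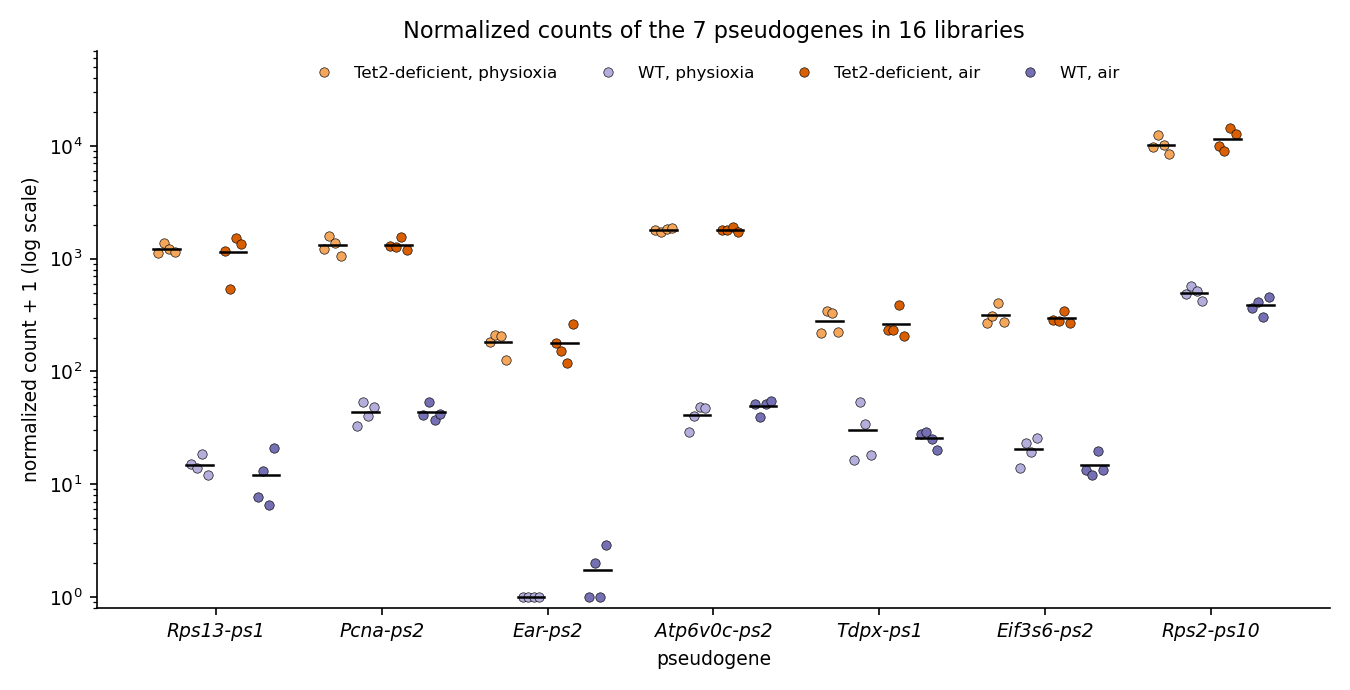
Normalized count plus 1 (log axis) of each pseudogene in the 16 libraries. Points are libraries, lines are group means, and within each pseudogene the groups run Tet2-deficient physioxia, WT physioxia, Tet2-deficient air and WT air; no Tet2-deficient library overlaps a WT library for any of the 7.

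Rps2-ps10 had the highest level of the 7. It is a copy of Rps2, which encodes a protein of the small ribosomal subunit, and lies on the minus strand at chr18:61259008-61259972 inside an intron of Pde6a, a gene of the opposite strand that is not analysed here. At 3% oxygen it stood at 9705, 12588, 10159 and 8483 normalized counts in the 4 Tet2-deficient libraries, against 484, 574, 518 and 421 in the 4 WT libraries. In air the values were 9952, 9101, 14439 and 12661 in Tet2-deficient cells and 365, 414, 302 and 455 in WT cells. The lowest Tet2-deficient library was thus 14.8 times the highest WT library. The ratio of group means, Tet2-deficient over WT, was 20.5 in physioxia (10234 ± 1722 against 499 ± 64.0, mean ± SD, n = 4 per group here and below) and 30.0 in air (11538 ± 2458 against 384 ± 66.1).

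Its parent went the other way. Rps2 (chr17:24718116-24721929, plus strand) stood at 22264, 25649, 26601 and 20790 in Tet2-deficient physioxia against 45543, 55682, 43954 and 44944 in WT physioxia. Air values were 21195, 21744, 30380 and 23971 in Tet2-deficient cells against 41263, 44097, 29662 and 39960 in WT cells, where the ranges overlapped. Rps2 fell at both oxygen levels, with a log2 difference of −0.997 ± 0.146 (SE of the fit, as for all log2 differences below) in physioxia (limma adjusted p = 5.57e-05) and −0.67 ± 0.15 in air (limma adjusted p = 0.00131). The parent genes and this test were not part of the rule that chose the pseudogenes. Such a call was common: of 6110 genes tested, 69.4% were called between genotypes in physioxia (35.9% higher, 33.6% lower in Tet2-deficient cells) and 79.5% in air (42.1% higher, 37.4% lower).

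The balance between Rps2 and its named copies shifted far more than their sum. The copies taken were the 8 genes of the table with symbols that begin with Rps2-ps. Blastn matched Rps2-ps10 to 29 other genes of the table, so this set leaves relatives out. Over Rps2 and these 8 copies, Rps2-ps10 held 29.5 ± 2.21% of the summed normalized count in Tet2-deficient physioxia. In WT physioxia it held 1.04 ± 0.0967%. In air the shares were 31.6 ± 2.04% in Tet2-deficient and 0.981 ± 0.108% in WT cells. Every Tet2-deficient library lay between 27.3% and 34.0% and every WT library between 0.874% and 1.16%. The summed count was 34576 ± 4202 in Tet2-deficient and 48247 ± 5525 in WT cells in physioxia. In air it was 36387 ± 6590 in Tet2-deficient and 39298 ± 6373 in WT cells, a difference within the spread between replicates. Per kilobase of annotated exon, Rps2-ps10 stood at 10605 and Rps2 at 13020 in Tet2-deficient physioxia, against 517 and 25973 in WT physioxia. The lengths used were unlike: 965 bases for Rps2-ps10 and 1830 for all annotated exons of Rps2, whose coding sequence has 882 bases. Some of these 9 genes share long stretches letter for letter, and the split of reads between those is uncertain. Of windows of 100 bases, 96.9% of Rps2-ps10 and 76.5% of Rps2-ps13 were found in another annotated gene. The share was 0% for Rps2-ps2 and Rps2-ps9.

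**Figure D2:**
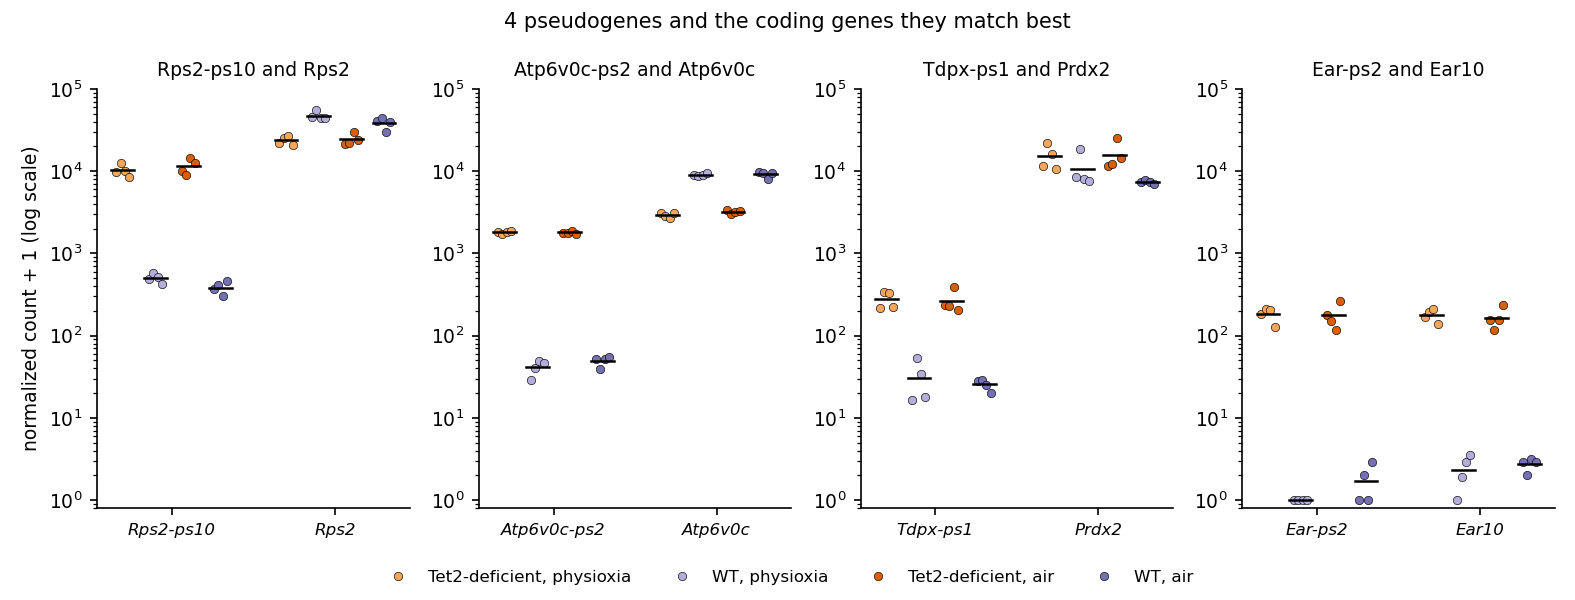
Normalized count plus 1 (log axis) of 4 pseudogenes, each beside the coding gene it matches best. Points are libraries and lines group means, in the order Tet2-deficient physioxia, WT physioxia, Tet2-deficient air, WT air; Rps2 and Atp6v0c lie lower in Tet2-deficient cells while their copies lie higher, and Ear10 lies higher together with Ear-ps2.

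Rps13-ps1 is a copy of Rps13, another gene of the small ribosomal subunit, at chr8:87047689-87048226 on the plus strand. In physioxia it stood at 1113, 1385, 1208 and 1136 in Tet2-deficient libraries, against 14.2, 12.9, 17.5 and 11.1 in WT libraries. The values in air were 1174, 537, 1531 and 1364 in Tet2-deficient cells and 6.73, 12.1, 5.51 and 20.1 in WT cells. Air replicate 2 was the lowest Tet2-deficient library and was still 26.8 times the highest WT library. The group means stood in a ratio of 87.0 in physioxia (1210 ± 123 against 13.9 ± 2.71) and 104 in air (1152 ± 435 against 11.1 ± 6.64). The WT values rest on few reads, 57 in all in physioxia and 45 in air. Rps13 itself is not analysed here. Of 33 listed genes of small ribosomal subunit proteins the table held 2, and the other, Rps7, was lower in Tet2-deficient physioxia (21787 ± 2422 against 31548 ± 6285, log2 difference −0.52 ± 0.17, limma adjusted p = 0.0143) and not called in air.

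Eif3s6-ps2 is a copy of Eif3e, a subunit of the translation initiation factor that brings the small ribosomal subunit to messenger RNA, and lies at chr18:90310868-90312190 on the minus strand. Physioxia counts were 271, 312, 402 and 275 in Tet2-deficient libraries, against 13.0, 22.1, 18.5 and 24.8 in WT libraries. Its air counts were 286, 280, 344 and 267 in Tet2-deficient cells, against 12.5, 11.1, 18.7 and 12.4 in WT cells. The genotypes lay 10.8-fold apart at their nearest libraries. The ratio of means was 16.1 in physioxia (315 ± 61.1 against 19.6 ± 5.10) and 21.5 in air (294 ± 34.3 against 13.7 ± 3.42). Eif3e is not analysed here.

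Among 14 listed subunit genes of the same factor, 5 were in the table. In Tet2-deficient physioxia, 1 passed the limma test as higher and 2 as lower. In Tet2-deficient air, 3 passed as higher and 2 as lower. A call in either direction was made for 69.4% of all genes tested in physioxia and 79.5% in air. Eif3j2 and Eif3j1, which encode near-identical forms of one subunit, went opposite ways. Eif3j2 averaged 619 ± 40.6 in Tet2-deficient and 39.8 ± 12.1 in WT physioxia (3.97 ± 0.30, limma adjusted p = 6.31e-08). Its air means were 522 ± 214 in Tet2-deficient against 32.9 ± 3.84 in WT cells (3.83 ± 0.30, limma adjusted p = 8.42e-08). Eif3j1 averaged 1179 ± 76.0 in Tet2-deficient and 1991 ± 121 in WT physioxia (−0.76 ± 0.26, limma adjusted p = 0.0189). Air means of Eif3j1 were 954 ± 397 in Tet2-deficient against 1763 ± 411 in WT cells (−0.97 ± 0.26, limma adjusted p = 0.00518). Reads of this pair can be split by counting as well.

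Pcna-ps2 is a copy of Pcna, the sliding clamp that holds DNA polymerase to its template, at chr19:9283380-9284160 on the plus strand. The physioxia libraries held 1211, 1597, 1374 and 1060 normalized counts in Tet2-deficient cells, against 31.9, 52.6, 38.9 and 46.9 in WT cells. The air libraries held 1307, 1275, 1561 and 1188 in Tet2-deficient cells and 40.4, 52.3, 36.3 and 41.1 in WT cells. No library of one genotype came within 20.2-fold of the other. The ratio of means was 30.8 in physioxia (1310 ± 230 against 42.6 ± 9.08) and 31.3 in air (1333 ± 160 against 42.5 ± 6.85). Pcna is not analysed here. Of 22 listed genes of the clamp, its loader and its partners the table held 5. In Tet2-deficient physioxia limma called 2 higher and 1 lower, and in Tet2-deficient air 3 higher and 1 lower. The shares called over all genes tested were 69.4% in physioxia and 79.5% in air. Fen1, the flap endonuclease that works with the clamp, averaged 862 ± 33.7 in Tet2-deficient and 590 ± 78.3 in WT air (0.56 ± 0.14, limma adjusted p = 0.00383). Pold1, the catalytic subunit of DNA polymerase delta, averaged 7399 ± 744 in Tet2-deficient and 10539 ± 1344 in WT air (−0.51 ± 0.14, limma adjusted p = 0.00687).

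Atp6v0c-ps2 varied least among the 7. It is a copy of Atp6v0c, which encodes the membrane ring subunit of the vacuolar proton pump that acidifies lysosomes, and lies at chr6:37806086-37806550 on the plus strand. Its physioxia counts were 1799, 1739, 1833 and 1869 in Tet2-deficient libraries, against 28.3, 39.7, 47.7 and 46.1 in WT libraries. Air counts were 1782, 1783, 1901 and 1735 in Tet2-deficient cells, against 50.9, 38.2, 50.7 and 53.6 in WT cells. Over the 8 Tet2-deficient libraries its coefficient of variation was 3.28%, where that of the other 6 ran from 13.9% to 26.8%. The ratio of means was 44.8 in physioxia (1810 ± 55.4 against 40.4 ± 8.79) and 37.2 in air (1800 ± 71.0 against 48.4 ± 6.87).

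Atp6v0c (chr17:24163866-24169702, minus strand) was lower in every Tet2-deficient library than in any WT library. It stood at 3135, 2876, 2732 and 3081 in Tet2-deficient physioxia against 9068, 8637, 9040 and 9400 in WT physioxia (−1.61 ± 0.09, limma adjusted p = 1.08e-09). The air values were 3335, 3017, 3165 and 3283 in Tet2-deficient cells against 9809, 9595, 7979 and 9623 in WT cells (−1.53 ± 0.09, limma adjusted p = 2.11e-09). The summed count of Atp6v0c and Atp6v0c-ps2 was 4766 ± 205 in Tet2-deficient and 9077 ± 315 in WT physioxia. The sum in air was 5000 ± 140 in Tet2-deficient against 9300 ± 852 in WT cells. The sum was therefore lower in Tet2-deficient cells by more than the spread between replicates, unlike that of Rps2 and its named copies in air. Markers of monocytes and macrophages, cells rich in lysosomes, were lower as well: the summed count of the 4 in the table, of 6 listed and none at 0 in any library, ran from 2547 to 3082 in Tet2-deficient against 6158 to 7785 in WT physioxia and from 2387 to 2928 in Tet2-deficient against 6979 to 9056 in WT air. The sums of 6 mature neutrophil markers (839 to 1436 in Tet2-deficient against 4278 to 8411 in WT physioxia) and of 5 basophil and mast cell markers (13442 to 18116 in Tet2-deficient against 55417 to 94643 in WT physioxia) were also lower, in air too. The part of these cells in the fall of Atp6v0c was not tested. Atp6v0c-ps2 held 38.0 ± 1.55% of the sum in Tet2-deficient and 0.445 ± 0.0935% in WT physioxia. Its share in air was 36.0 ± 1.53% in Tet2-deficient against 0.525 ± 0.0975% in WT cells.

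Listed genes of the proton pump, Atp6v0c included, went both ways. Of 26 listed subunit genes 10 were in the table. Limma called 3 higher and 7 lower in physioxia, and 2 higher and 5 lower in air. The shares called over all genes tested were 69.4% and 79.5%. The median log2 differences of the 10 were −0.45 and −0.32, against 0.06 and 0.24 over all genes tested. Tcirg1, a membrane subunit, averaged 3097 ± 556 in Tet2-deficient and 4729 ± 226 in WT air (−0.63 ± 0.15, limma adjusted p = 0.00218). Atp6ap2, an accessory protein of the pump, averaged 7496 ± 239 in Tet2-deficient and 10548 ± 866 in WT physioxia (−0.49 ± 0.10, limma adjusted p = 0.001). Atp6v0e2 was among the higher ones, with 246 ± 54.1 in Tet2-deficient and 0.943 ± 1.38 in WT physioxia. Air means were 293 ± 71.2 for Tet2-deficient and 0.503 ± 1.01 for WT cells.

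Tdpx-ps1 had the smallest gap of the 7. Its name refers to thioredoxin peroxidase, an older name for peroxiredoxins, and its closest coding gene is Prdx2, which removes hydrogen peroxide and is abundant in red cells. It lies at chr1:99790429-99791025 on the minus strand inside an intron of Cntnap5b, a gene of the opposite strand that is not analysed here. Its counts in physioxia were 217, 341, 328 and 221 in Tet2-deficient libraries, against 15.3, 52.6, 33.1 and 17.1 in WT libraries. Its counts in air were 233, 230, 385 and 206 in Tet2-deficient cells, against 26.9, 28.2, 24.2 and 19.1 in WT cells. The lowest Tet2-deficient library, air replicate 4, was 3.91 times the highest WT library, physioxia replicate 2. The ratio of means was 9.38 in physioxia (277 ± 66.8 against 29.5 ± 17.3) and 10.7 in air (264 ± 82.1 against 24.6 ± 4.01). Without WT physioxia replicate 2 the ratio in physioxia was 12.7.

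Prdx2 (chr8:84969587-84974834, plus strand) moved in the same direction as Tdpx-ps1, by far less. In physioxia it stood at 11703, 21766, 16333 and 10747 in Tet2-deficient cells and 8577, 18721, 8112 and 7566 in WT cells, which overlapped and did not pass the test (0.55 ± 0.29, limma adjusted p = 0.106). Without WT physioxia replicate 2 the difference was 0.85 and passed. In air it rose to 11507, 12198, 25302 and 14399 in Tet2-deficient cells, against 7447, 7906, 7312 and 7019 in WT cells (1.02 ± 0.29, limma adjusted p = 0.00695). Without Tet2-deficient air replicates 3 and 4 this difference was 0.68 and did not pass. Tet2-deficient air replicate 3 and WT physioxia replicate 2 were also the highest of their groups for erythroid markers. The summed count of 8 such genes, α- and β-globin among them, was 270360 in Tet2-deficient air replicate 3 and 107651 to 140076 in the other 3 of its group, and 64288 in WT physioxia replicate 2 against 34389 to 45443 in the others of that group. Over all libraries that sum ran from 102254 to 252422 in Tet2-deficient against 34389 to 64288 in WT physioxia and from 107651 to 270360 in Tet2-deficient against 28710 to 45424 in WT air. Of the 8 markers limma called 6 higher in Tet2-deficient physioxia and 8 in Tet2-deficient air. Over all genes tested, 35.9% were called higher in physioxia and 42.1% in air. The part of erythroid cells in these differences was not tested, and in bulk samples more cells of a type and more RNA per cell cannot be told apart.

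Of 14 listed peroxiredoxin and thioredoxin genes 8 were in the table. In Tet2-deficient physioxia limma called 3 higher and 1 lower, and in Tet2-deficient air 6 higher and 1 lower. Over all genes tested, 69.4% were called in physioxia and 79.5% in air. Srxn1, the sulfiredoxin that repairs over-oxidised peroxiredoxins, averaged 142 ± 29.3 in Tet2-deficient and 67.5 ± 7.36 in WT physioxia (1.05 ± 0.23, limma adjusted p = 0.00158). Prdx5, a peroxiredoxin of mitochondria and peroxisomes, averaged 7403 ± 965 in Tet2-deficient and 12571 ± 4825 in WT physioxia (−0.70 ± 0.18, limma adjusted p = 0.00312). Prdx1 is not analysed here.

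Ear-ps2 was all but unread in WT cells. It belongs to the eosinophil-associated ribonucleases, a family of secreted granule enzymes expanded in the mouse by duplication, and lies at chr14:44046985-44047450 on the plus strand. In physioxia it stood at 183, 211, 204 and 126 in Tet2-deficient libraries and at 0 in all 4 WT libraries. In air it stood at 179, 151, 117 and 263 in Tet2-deficient cells, against 0, 1.01, 0 and 1.91 in WT cells. The Tet2-deficient libraries of physioxia held 647 reads of it and the WT ones 0, which is at least 61.4-fold higher with 3 reads per WT library taken as the floor. In air 821 reads stood against 3, a ratio of 240 after scaling by the size factors, with a 95% counting interval of 81.7 to 1164. The ratio of group means in air was 243, and 530 without WT air replicate 4, which held 2 of the 3 reads. Floors and intervals cover counting error only.

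Genes of its family did not go one way. Ear10, its closest coding gene (98.3% identical, chr14:43922720-43923559, minus strand), stood at 170, 192, 212 and 138 in Tet2-deficient physioxia against 0, 0.922, 1.95 and 2.56 in WT physioxia (6.38 ± 0.37, limma adjusted p = 2.74e-09). In air it stood at 152, 116, 153 and 235 in Tet2-deficient cells against 1.92, 1.01, 2.20 and 1.91 in WT cells (5.88 ± 0.37, limma adjusted p = 6.54e-09). Ear1, another member of the cluster on chromosome 14, fell to 789, 800, 844 and 721 in Tet2-deficient physioxia, against 2491, 2345, 1850 and 2787 in WT physioxia (−1.57 ± 0.22, limma adjusted p = 4.37e-05). In air Ear1 averaged 764 ± 214 in Tet2-deficient and 2612 ± 865 in WT cells (−1.74 ± 0.22, limma adjusted p = 1.69e-05). Ear6 averaged 911 ± 34.9 in Tet2-deficient and 1868 ± 172 in WT physioxia (−1.03 ± 0.18, limma adjusted p = 0.000305). In air Ear6 averaged 913 ± 194 in Tet2-deficient against 2226 ± 664 in WT cells (−1.26 ± 0.18, limma adjusted p = 5.49e-05). Rnase12, a related ribonuclease, averaged 67.8 ± 9.71 in Tet2-deficient and 306 ± 61.0 in WT physioxia (−2.15 ± 0.19, limma adjusted p = 4.12e-07). Of 17 listed family genes 5 were in the table. Limma called 1 higher and 3 lower in physioxia, and 1 higher and 4 lower in air. The shares called over all genes tested were 69.4% in physioxia and 79.5% in air.

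Markers of eosinophils went the other way from Ear-ps2 and Ear10. The table held 6 of the 7 listed, none at 0 in any library, and limma called 5 lower in Tet2-deficient cells at each oxygen level. Over all genes tested, 33.6% were called lower in physioxia and 37.4% in air. The summed count of the 6 markers ran from 116748 to 184856 in Tet2-deficient against 353866 to 600475 in WT physioxia. In air it ran from 90530 to 173639 in Tet2-deficient against 433113 to 475536 in WT cells. Prg2, the major basic protein gene of eosinophil granules, averaged 111045 ± 21087 in Tet2-deficient and 363219 ± 118669 in WT physioxia. Ear-ps2, Ear10, Ear1, Ear6 and Ear-ps9 together summed to 2067 ± 99.7 in Tet2-deficient and 4264 ± 549 in WT physioxia, and Ear-ps2 held 8.71% of the Tet2-deficient sum. The part of eosinophils in these differences was not tested.

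**Figure D3:**
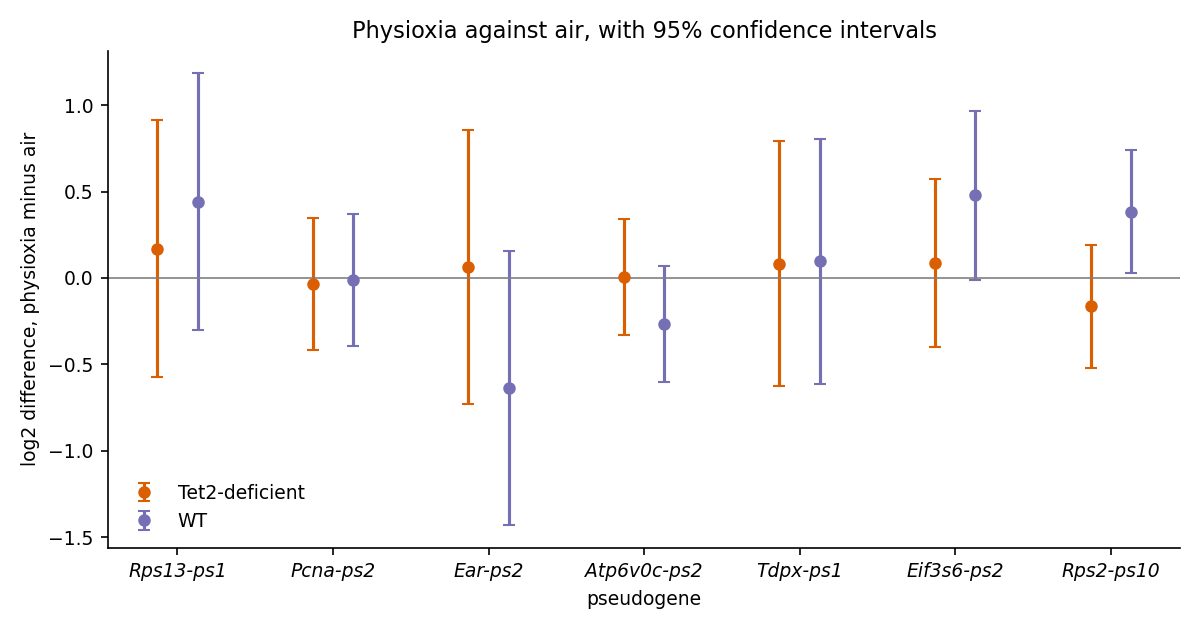
Log2 difference between physioxia and air for each pseudogene in Tet2-deficient (left point) and WT cells (right point), on the scale of log2 of the normalized count plus 1. Points are limma estimates and bars their unadjusted 95% confidence intervals; each Tet2-deficient estimate lies between −0.16 and 0.17.

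The rule that chose the pseudogenes used no difference between physioxia and air. It did ask for the gap at both oxygen levels, from the same group means, and so can favour pseudogenes that changed little with oxygen. Their levels were tested between physioxia and air within each genotype. None of the 7 was called in either genotype by limma. In Tet2-deficient cells the log2 differences ran from −0.16 for Rps2-ps10 to 0.17 for Rps13-ps1, 0 of 7 had an unadjusted p under 0.05, and edgeR and DESeq2 called 0 of 7 as well. Over all genes tested limma called 0% in Tet2-deficient cells, where 280 genes had an unadjusted p under 0.05, edgeR called 0 and DESeq2 8. In WT cells limma called 5.76% of all genes (4.91% higher and 0.851% lower in physioxia). That count of 352 genes was 126 to 554 with 1 library left out and 0 with every annotated gene counted in the adjustment. The WT differences ran from −0.64 for Ear-ps2, which rests on 3 reads, to 0.48 for Eif3s6-ps2.

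By limma Rps2-ps10 had the lowest p of the 7. In WT cells it was 499 ± 64.0 in physioxia and 384 ± 66.1 in air, a log2 difference of 0.38 ± 0.17 (limma unadjusted p = 0.0357, adjusted p = 0.214, higher in 3 of 4 physioxia libraries than in any air library). That fit did not pair the WT libraries by replicate number. With the replicate number as a block, 0 of 7 had a limma unadjusted p under 0.05 in WT cells. By edgeR the adjusted p of Rps2-ps10 in WT cells was 0.300. The lowest of the 7 was that of Ear-ps2 (edgeR adjusted p = 0.237), which rests on 3 reads and was the only one with an edgeR unadjusted p under 0.05. By DESeq2 the adjusted p of Rps2-ps10 was 0.322, with Atp6v0c-ps2 lowest (DESeq2 adjusted p = 0.316) and 0 of 7 under 0.05 unadjusted. In Tet2-deficient cells Rps2-ps10 differed by −0.16 ± 0.17 (limma adjusted p = 1). The test of the difference between these responses did not pass either (−0.55 ± 0.24, limma unadjusted p = 0.0345, adjusted p = 0.552), and over all genes limma called 0% for this interaction, with 546 at an unadjusted p under 0.05, while edgeR called 0 and DESeq2 10. Intervals of the oxygen difference show what the 4 libraries per group could exclude. For Atp6v0c-ps2 in Tet2-deficient cells the 95% interval of the ratio of physioxia to air was 0.797 to 1.27, and for Pcna-ps2 it was 0.749 to 1.27. For Rps13-ps1 it was wider, 0.673 to 1.88. None of the 6 parent genes in the table was called between physioxia and air by limma in either genotype, with Rps2 in WT cells at 0.30 ± 0.15 (limma adjusted p = 0.267).

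**Figure D4:**
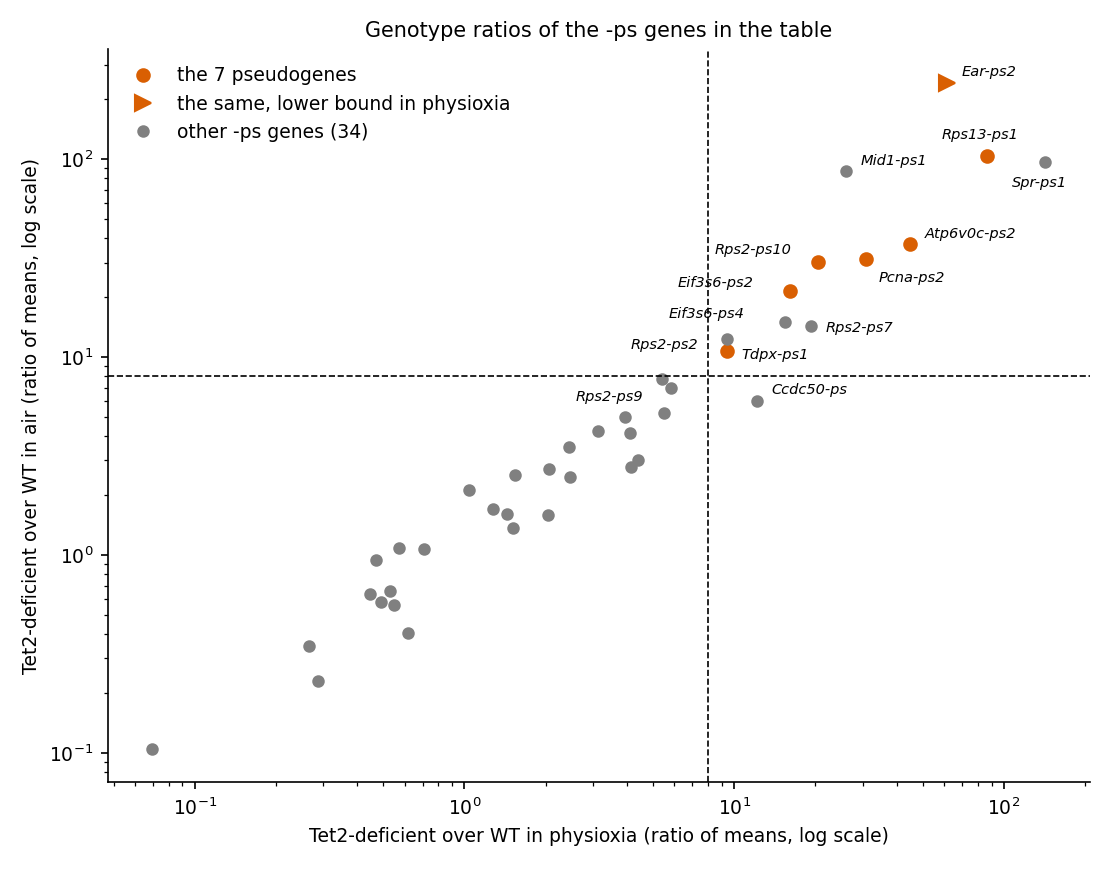
Ratio of group means, Tet2-deficient over WT, in physioxia (x) and in air (y), both on log axes, for the 41 genes of the table whose symbol ends in -ps. The dashed lines mark 8-fold, the triangle is Ear-ps2 with its lower bound of 61.4 in physioxia, and 12 genes lie above 8-fold on both axes.

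Pseudogenes with such gaps were not limited to the 7. Of 41 genes of the table whose symbol ends in -ps, 12 stood at least 8-fold higher in Tet2-deficient cells at both oxygen levels and 1, Klra13-ps, at least 8-fold lower. The other 5 higher ones were Spr-ps1, Mid1-ps1 (annotated on chromosome Y), Eif3s6-ps4, Rps2-ps7 and Rps2-ps2. Spr-ps1 had 152 reads in Tet2-deficient and 1 in WT physioxia. Its air reads were 209 in Tet2-deficient and 2 in WT cells. Just inside the threshold, with the smaller of the 2 ratios given, were Tdpx-ps1 at 9.38 and, outside the 7, Rps2-ps2 at 9.38 and Rps2-ps7 at 14.3. The ratio of Rps2-ps2 rests on values near the floor. Its means were 4.17 in Tet2-deficient against 0.444 in WT physioxia, and 5.96 in Tet2-deficient against 0.481 in WT air. Just outside it were Ccdc50-ps at 6.03 and Rps2-ps9 at 5.85. Of 245 genes with any pseudogene type in the annotation, 45 (18.4%) stood at least 8-fold higher and 3 (1.22%) at least 8-fold lower. Among the 6043 other genes 73 (1.21%) were as much higher and 98 (1.62%) as much lower.

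**Figure D5:**
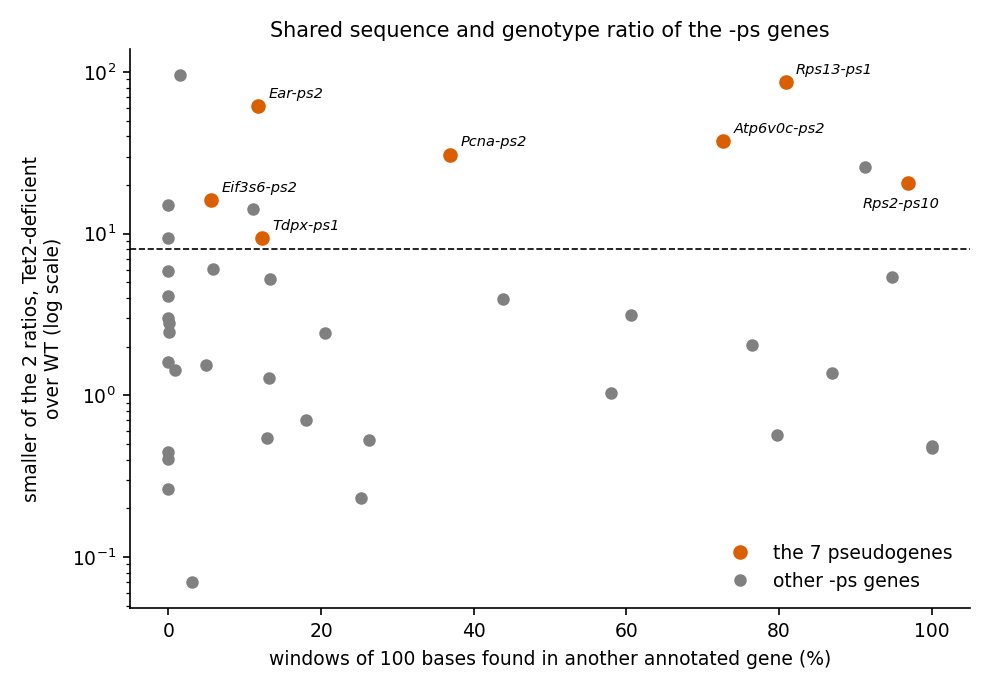
Percentage of a gene's windows of 100 bases found letter for letter in another annotated gene (x) against the smaller of its 2 ratios of Tet2-deficient over WT means (y, log axis), for the 41 -ps genes. The dashed line marks 8-fold; the genes above it spread from 0% to 96.9% on the x axis, as the genes below it spread from 0% to 100%.

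The medians of the shared windows of 100 bases lay close in genes with and without such a gap, and no test was made of them. The 12 genes at least 8-fold higher include the 7 that were chosen for that gap. These 12 had a median of 12.0% of windows of 100 bases in common with another annotated gene (range 0% to 96.9%). The other 29 had a median of 13.1% (0% to 100%). With windows of 50 bases the medians were 49.8% and 41.7%. Among the 7, the largest shares of windows of 100 bases of their own were those of Eif3s6-ps2 (94.4%), Ear-ps2 (88.3%) and Tdpx-ps1 (87.8%). The part of shared sequence in the gaps was not tested.

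The 7 lie on 6 chromosomes, none on chromosome 3, where Tet2 is. Within 1 Mb on either side the table held between 0 genes (Tdpx-ps1) and 14 genes (Pcna-ps2), and most did not show a like gap. The nearest were Siah1a for Rps13-ps1 (ratio of Tet2-deficient over WT means 0.467 in physioxia and 0.575 in air), Ahnak for Pcna-ps2 (0.600 and 0.462) and Tmx3 for Eif3s6-ps2 (1.30 and 1.30). The nearest to Atp6v0c-ps2 was Atp6v0a4, a pump subunit at 4.36 in physioxia and 3.09 in air, and the nearest to Rps2-ps10 were Ppargc1b (1.94 and 1.38) and Slc26a2 (3.27 and 2.01). A gap of at least 8-fold in the same direction at both oxygen levels was found within 1 Mb of Ear-ps2 (Ear10 and AC160336.1) and of Rps2-ps10 (Gm4841), and one in the other direction, Arsi, near Rps2-ps10. Next to Ear-ps2, Gm8113 was lower (0.179 and 0.135).

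Genes were ranked by how like their pattern was to each of the 7 over the 16 libraries, and Hmga1b came first most often. Pseudogenes and genes with Gm, Rik, clone or identifier-only names were left out of these rankings. By Pearson's r of log2 normalized counts over 16 libraries, given as a description since the libraries fall into 2 genotype clusters and share their size factors, Hmga1b was first for Rps13-ps1 (0.99), Ear-ps2 (0.99) and Atp6v0c-ps2 (1.00). Gbp2b was first for Pcna-ps2 (0.99), Tmem87a for Rps2-ps10 (0.99), Plscr2 for Eif3s6-ps2 (0.99) and Psma8 for Tdpx-ps1 (0.98). Hmga1b, a gene of a chromatin architectural protein with a close relative, averaged 4147 in Tet2-deficient and 155 in WT physioxia. Its air means were 4274 in Tet2-deficient against 158 in WT cells. After the group means were subtracted, other genes came first: Rpl15 for Rps2-ps10 (0.89), Cks2 for Rps13-ps1 (0.76), Kti12 for Pcna-ps2 (0.94), Tprkb for Tdpx-ps1 (0.89), Cd248 for Eif3s6-ps2 (0.80), Sftpb for Atp6v0c-ps2 (0.81) and Fig4 for Ear-ps2 (0.78).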

How the data were processed

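The deposited table holds, per gene and library, a signal that the authors made by dividing read counts by 1 size factor per library; its file name gives DESeq2. All values (100%) were whole multiples of the value of 1 read within 0.01, so whole reads were recovered. FastQC, cutadapt, STAR, HTSeq, DESeq2 and GRCm38 are named, without versions, per the submitters' processing notes, with no roles. Per the labels' protocols, RNA had an integrity number over 7 and went through a low-input library kit and paired-end sequencing. Of 6288 genes, 6281 were matched by identifier to a symbol in GENCODE M21 (55536 genes annotated). Reads per library came to 7.77 to 15.7 M, and the 10 most abundant genes held 12.3% to 20.3% of them.

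A gene was tested where at least 4 libraries reached a normalized count of 10, which left 6110 genes and all 7 pseudogenes. The model was limma's (3.58.1, in R 4.3.3), with the variance trend, on log2(normalized count + 1) of the 16 libraries together, with 1 mean for each group and no other term. Tests were two-sided, Benjamini-Hochberg adjusted over the genes tested, with 0.05 as the threshold. Log2 differences are on that scale, which understates changes of low genes. p-values measure the spread between these samples. The alternatives were a pseudocount of 5, no filter, a minimum of 50, quantile normalization, edgeR 4.0.16 and DESeq2 1.42.0 on the recovered reads, the replicate number as a block, each library left out, Tet2-deficient air libraries 3 and 4 left out together, and an adjustment over all annotated genes, those missing from the table taken at p of 1. The limma and edgeR fits were tested on simulated data, for the genotype comparison in air only. DESeq2, the replicate block and the other comparisons were not tested in this way. In WT cells, same-numbered physioxia and air libraries deviated together (r = 0.16 to 0.33 for the 4 pairs, each highest with its own number), so the numbers were taken as pairing them. Transcripts were compared with blastn 2.17.0 and aligned to coding sequences with Biopython 1.88. Levels per kilobase use the union of annotated exons.

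The members, gene lists and tests were chosen with earlier results of these data known. Named were the 7, their parent genes, up to 4 called genes per family list and genotype comparison by p, the overlapping gene and the nearest genes of the table within 1 Mb, the 2 genes most like each by Pearson's r, of which the first is given, the 2 other -ps genes nearest the 8-fold threshold on either side, and Tet2; of the genes the family lists name, those that show both directions are given. The ranking by Pearson's r left out pseudogenes and genes with Gm, Rik, clone or identifier-only names. The other -ps genes past the threshold, Eif3j1 beside Eif3j2 and Prg2 were named after their values were seen.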

Additional observations from a re-analysis of the deposited data

Results flagged for a closer look

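Of 51 groups of 4 values of the 7 pseudogenes and their parents, 4 held a library far from the other 3, where chance flags about 1 group in 20. Tdpx-ps1 stood at 385 in Tet2-deficient air replicate 3, against 206 to 233 in the other libraries of that group. Prdx2 stood at 18721 in WT physioxia replicate 2, against 7566 to 8577 in the others. In the same library Rps2 stood at 55682, against 43954 to 45543 in the others. Atp6v0c stood at 7979 in WT air replicate 3, against 9595 to 9809 in the others.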

How the results depend on the processing

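The genotype ratios of the 7 pseudogenes ran from 7.90 to 530 over the alternatives: 129 of 130 values moved by less than the spread between replicates, and the exception was Ear-ps2 in air, at 530 without WT air replicate 4. Below 8-fold lay only Tdpx-ps1 in physioxia, at 7.90. None of the 350 oxygen differences of the 7 passed the threshold (lowest limma adjusted p 0.117, Rps2-ps10 in WT cells without WT physioxia replicate 4). Prdx2 in air did not pass with every annotated gene counted (1.02) or without Tet2-deficient air replicates 3 and 4 (0.68), and in physioxia it passed after quantile normalization (0.85) and without WT physioxia replicate 2 (0.85). The other 296 genotype differences of the 6 parents kept direction and call. Over all genes, limma called 352 between physioxia and air in WT cells, DESeq2 548, and none with every annotated gene counted (1189 genes had an unadjusted p under 0.05). Leaving out 1 library gave 126 to 554: 151 and 127 without WT air replicates 2 and 4, and 126, 165, 228 and 554 without WT physioxia replicates 1 to 4. In Tet2-deficient cells limma called 0, and the count was 1 with a pseudocount of 5, 8 with DESeq2, 152 without air replicates 3 and 4 and 0 to 1 without 1 library. Between genotypes in air 4858 were called, with 2432 when every annotated gene was counted, 2740 without Tet2-deficient air replicates 3 and 4, and 4034 to 5267 without 1 library. In physioxia 4243 were called, with 2477 when every annotated gene was counted and 3832 to 4300 without 1 library. The cause of these shifts was not tested, other than the larger number of genes adjusted over. Quantile normalization shifted the median log2 difference of all genes between genotypes in air by −0.12, to 0.12. With the replicate block the 4 counts were 462, 0, 4822 and 4203, and no call of a pseudogene or parent changed. Outside the WT oxygen pairs the numbers did not pair the libraries as a set (r from −0.27 to 0.32). Single pairs were highest with their own number: Tet2-deficient replicate 1 between oxygen levels (r = 0.32) and replicate 2 between genotypes in physioxia (r = 0.12). Depth limits the WT values of Ear-ps2 (0 and 3 reads), Rps13-ps1 (57 and 45) and Eif3s6-ps2 (83 and 54, physioxia and air).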
